A study of Mus musculus with 2 samples.

Results

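The genes of peroxisome biogenesis and peroxisomal lipid metabolism were examined in the subcutaneous fat of the groin (inguinal white adipose tissue). The 33 genes were taken from a list drawn up by function, at a time when earlier results of these data were known: 12 peroxins, 5 membrane protein genes and 16 enzymes. All 33 were among the 19938 genes named on the array, and each had 1 probe set. The mutant animals were Ucp1-/-;ApoE-/- double knockouts (DKO), which lack uncoupling protein 1, the heat-producing protein of brown and beige fat, together with the lipoprotein ligand ApoE. The comparison animals were ApoE-KO mice, so the ApoE deletion was common to both groups. All were C57BL/6J males, littermates per the design text, kept at 23 °C and given high-fat food for 9 weeks from an age of 9 weeks. RNA of 3 mice per genotype was pooled and hybridised to 1 Affymetrix array, giving 2 arrays in all. With 1 array per genotype the spread between mice was not measured, so there is no test, no error and no p-value for any difference given here.

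Peroxisomes are small organelles that import folded enzymes through a machinery of peroxins. They shorten very-long-chain and dicarboxylic fatty acids by beta-oxidation, remove a carbon from branched chains by alpha-oxidation, and start the synthesis of ether lipids such as plasmalogens. In brown and beige adipocytes they are abundant beside mitochondria, and many of their genes are known targets of the nuclear receptor PPAR alpha.

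The labels were checked first. Ucp1 read 2230 intensity units on the DKO-labelled array and 219 on the ApoE-KO-labelled array, a log2 difference of 3.35. This goes against the label if the probes read the deleted part of the gene, and where they lie is not stated by the sources at hand. Apoe had 502 on the DKO-labelled array and 589 on the ApoE-KO-labelled array, a difference of -0.23. The arrays are therefore called by their labels, and each direction given depends on them. Log2 differences are DKO-labelled minus ApoE-KO-labelled.

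Markers of several cell types of the depot also differed between the arrays. Of 7 brown and beige adipocyte markers, 7 were higher in the array labelled DKO, with summed intensities of 12932 (DKO) and 2072 (ApoE-KO). Of 8 skeletal muscle markers, 8 were lower, with sums of 1327 (DKO) and 23038 (ApoE-KO). All 5 B cell markers were lower, with sums of 2281 (DKO) and 4727 (ApoE-KO), as were all 6 macrophage markers, with 4408 (DKO) and 6504 (ApoE-KO). The 8 adipocyte markers summed to 40472 (DKO) and 38681 (ApoE-KO), with a median difference of 0.04, and all lay above the expression floor. The floor, an intensity of 196.9, is the median over all named probe sets and not a detection limit. Of the 8 muscle markers, 2 reached it on the DKO-labelled array and 8 on the ApoE-KO-labelled array. Of the 7 brown and beige markers, 7 reached it on the DKO-labelled array and 5 on the ApoE-KO-labelled array. Endothelial markers summed to 4829 (DKO) and 4955 (ApoE-KO), epithelial markers to 711 (DKO) and 655 (ApoE-KO) and hepatocyte markers to 11567 (DKO) and 11129 (ApoE-KO). Of the hepatocyte markers, Alb had 837 on the DKO-labelled array and 417 on the ApoE-KO-labelled array, Cyp2e1 had 10388 on the DKO-labelled array and 10436 on the ApoE-KO-labelled array, and Ttr, Apoa1 and Fgb lay below the floor in both arrays. The part of these cell types in the values below was not tested, and in pooled tissue a change in cell number and a change in RNA per cell cannot be told apart.

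Most of the peroxisomal genes were higher in the array labelled DKO. Of the 33 genes, 31 were higher and 2 lower, which is 93.9%, against 46.4% of all named genes that were higher by any amount. At least 2-fold higher were 6 of 33 (18.2%), against 1.51% of all named genes, and 0 were at least 2-fold lower, against 0.527%. At least 1.5-fold higher were 15 of 33 (45.5%), against 4.44%. The median difference of the 33 was 0.55 (1.47-fold), and that of all named genes was -0.01. These 6 genes were Ehhadh, Abcd3, Hacl1, Acaa1b, Decr2 and Scp2, which encode 5 enzymes and 1 transporter of lipid oxidation and no peroxin. By the size of the difference they stood at ranks 31, 34, 68, 89, 139 and 238 from the top of the 19938 genes, in that order. Of the 33 genes, 29 had a mean intensity on or above the floor, against 9891 of all 19938 named genes. Among the genes on or above the floor, 2.79% were at least 2-fold higher and 48.2% were higher at all. The plot of intensities in both arrays shows each gene.

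**Figure D1:**
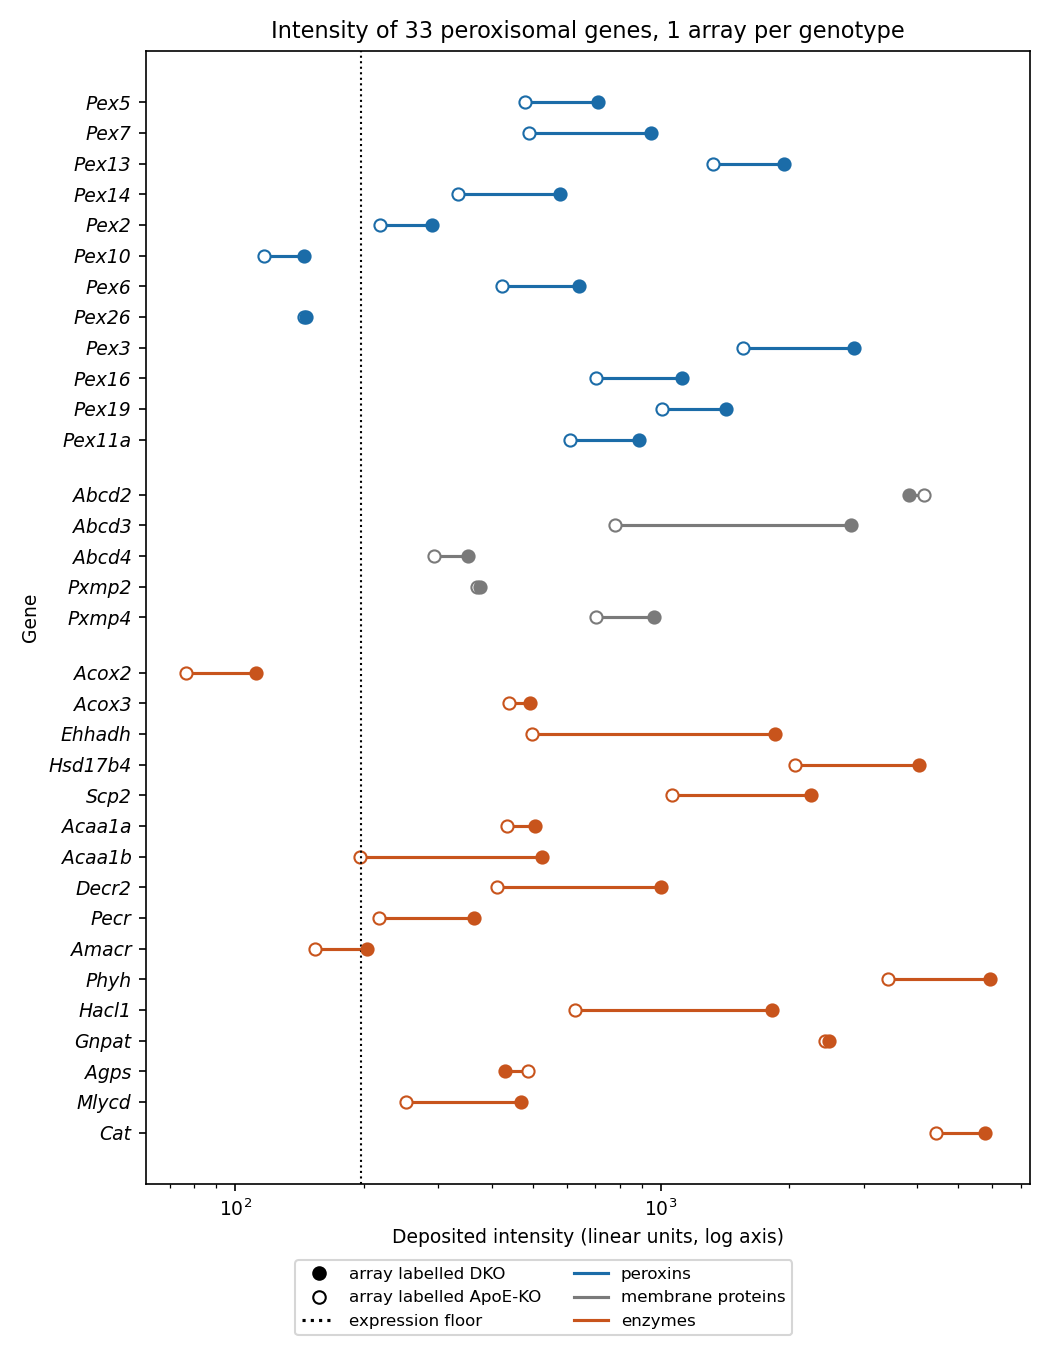
Intensity of each of the 33 genes on a log axis, filled circles for the array labelled DKO and open circles for the array labelled ApoE-KO, grouped as peroxins, membrane proteins and enzymes, with the floor of 196.9 as a dotted line. The filled circle lies to the right of the open one in 31 genes, and the widest gaps are those of Ehhadh and Abcd3.

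The promoters of the 4 genes with the largest differences, and that of Acaa1a, the close paralogue of Acaa1b that differed little, are shown because these genes hold the largest differences and the contrast between paralogues. They cover 250 bases before and 50 after the start of the gene, 5′ to 3′ on the gene's strand, from RefSeq (GRCm38.p6), where 26 of the 33 genes had an entry. They lie at chr16:21787785-21788084, reverse strand (Ehhadh); chr3:121815253-121815552, reverse strand (Abcd3, the first of its entries); chr14:31640916-31641215, reverse strand (Hacl1); chr9:119157044-119157343, reverse strand (Acaa1b); and chr9:119341044-119341343, forward strand (Acaa1a). Capitals mark matches on either strand to the nuclear receptor core motif AGGTCA, the GC box GGGCGG and the CCAAT box CCAAT. No motif contains another, but neighbouring matches may share bases.

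Ehhadh: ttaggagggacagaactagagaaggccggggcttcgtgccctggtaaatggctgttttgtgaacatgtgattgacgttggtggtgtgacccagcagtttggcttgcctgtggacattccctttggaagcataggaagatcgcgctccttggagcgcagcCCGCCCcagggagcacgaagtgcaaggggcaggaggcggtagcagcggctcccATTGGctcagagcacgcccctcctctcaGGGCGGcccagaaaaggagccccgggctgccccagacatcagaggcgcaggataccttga
Abcd3: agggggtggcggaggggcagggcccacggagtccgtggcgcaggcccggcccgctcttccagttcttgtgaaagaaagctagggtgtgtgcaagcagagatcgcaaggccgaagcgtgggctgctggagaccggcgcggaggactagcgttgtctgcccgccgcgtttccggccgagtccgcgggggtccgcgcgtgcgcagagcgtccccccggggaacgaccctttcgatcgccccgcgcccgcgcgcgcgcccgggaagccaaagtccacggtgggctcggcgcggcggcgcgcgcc
Hacl1: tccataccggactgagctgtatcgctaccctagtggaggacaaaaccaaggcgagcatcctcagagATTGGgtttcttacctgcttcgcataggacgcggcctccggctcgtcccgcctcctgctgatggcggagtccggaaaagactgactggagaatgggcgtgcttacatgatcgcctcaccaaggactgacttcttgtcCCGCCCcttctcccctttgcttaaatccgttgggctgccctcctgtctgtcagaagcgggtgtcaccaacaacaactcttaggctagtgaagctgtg
Acaa1b: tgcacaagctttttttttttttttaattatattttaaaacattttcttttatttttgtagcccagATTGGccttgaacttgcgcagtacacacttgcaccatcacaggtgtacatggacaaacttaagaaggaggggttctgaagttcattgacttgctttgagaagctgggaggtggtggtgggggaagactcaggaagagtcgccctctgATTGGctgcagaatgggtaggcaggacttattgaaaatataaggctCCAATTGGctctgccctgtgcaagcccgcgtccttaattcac
Acaa1a: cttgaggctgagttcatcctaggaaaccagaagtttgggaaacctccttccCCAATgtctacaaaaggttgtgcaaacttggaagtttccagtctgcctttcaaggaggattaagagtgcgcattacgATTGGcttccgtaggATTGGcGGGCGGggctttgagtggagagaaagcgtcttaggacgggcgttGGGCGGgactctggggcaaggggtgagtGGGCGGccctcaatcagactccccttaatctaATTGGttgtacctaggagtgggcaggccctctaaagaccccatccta

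The 5 promoters differed in these letters. Acaa1b held 4 CCAAT boxes and 0 GC boxes, whereas Acaa1a held 4 CCAAT boxes and 3 GC boxes. Ehhadh held 2 GC boxes and 1 CCAAT box, Hacl1 held 1 of each, and the Abcd3 window held 0 of the 3 motifs. Over all 26 genes with an entry, 19 (73.1%) had a GC box, against 52.9% of the 15614 array genes with an entry. A CCAAT box was found in 13 (50%), against 41.7%. The core motif AGGTCA was found in 3 (11.5%: Cat, Phyh and Scp2), against 16.3%. A direct repeat of that core with 1 base between, AGGTCANAGGTCA, the arrangement that PPAR and RXR are known to bind, was found in 0 of 26 genes and in 0.0512% of array genes. GC boxes were found in 8 of 10 peroxins and 10 of 14 enzymes, and CCAAT boxes in 3 of 10 and 9 of 14. A match is a run of letters in this window and describes no binding. The direct repeat is so rare among array genes that 0 of 26 tells nothing about these genes. Inexact copies and sites outside the window were not searched.

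The peroxins build and maintain the organelle. All 12 were higher in the array labelled DKO, against 46.4% of all named genes. The differences ran from 0.02 to 0.95, with a median of 0.56 (1.48-fold) and an interquartile range of 0.22. At least 1.5-fold higher were 5 of 12 (Pex7, Pex3, Pex14, Pex16 and Pex6), against 4.44% of all named genes, and 0 were at least 2-fold higher, against 1.51%. The 12 differences shared 1 direction, and a count of 0 among 12 genes is close to that background.

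The receptors for matrix enzymes come first in the import route. Pex5, the receptor for the common carboxy-terminal targeting signal, had 711 on the DKO-labelled array and 480 on the ApoE-KO-labelled array, a difference of 0.57. Pex7, the receptor for the rarer amino-terminal signal, had 949.0 on the DKO-labelled array and 490 on the ApoE-KO-labelled array, a difference of 0.95 (1.94-fold). Pex7 was the peroxin with the largest difference, just short of 2-fold, and it passed 2-fold (1.01) when each array was centred on its median. The docking proteins hold the loaded receptors at the membrane. Pex13 had 1941 on the DKO-labelled array and 1322 on the ApoE-KO-labelled array (0.55), and Pex14 had 578 on the DKO-labelled array and 334 on the ApoE-KO-labelled array (0.79).

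Pex2 and Pex10 encode ring-finger subunits of the ubiquitin ligase that marks receptors for recycling. Pex2 had 289 on the DKO-labelled array and 219 on the ApoE-KO-labelled array, a difference of 0.40. Pex10 had 145 on the DKO-labelled array and 117 on the ApoE-KO-labelled array (0.31), both below the floor. Pex6, an ATPase that pulls receptors out of the membrane, had 643 on the DKO-labelled array and 423 on the ApoE-KO-labelled array (0.61). Pex26, the anchor that holds Pex6 at the membrane, had 147 on the DKO-labelled array and 145 on the ApoE-KO-labelled array (0.02), both below the floor. Pex26 had the smallest difference of the 12, and its sign turned (-0.027) with the adipocyte markers as zero.

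The peroxins that place proteins into the peroxisomal membrane were all higher. Pex3, the membrane docking factor of this route, had 2836 on the DKO-labelled array and 1560 on the ApoE-KO-labelled array, a difference of 0.86 (1.82-fold). Pex16, which helps to bring Pex3 to the membrane, had 1120 on the DKO-labelled array and 704 on the ApoE-KO-labelled array (0.67). Pex19, the soluble carrier of membrane proteins, had 1423 on the DKO-labelled array and 1005 on the ApoE-KO-labelled array (0.50). The order of the differences was Pex3, Pex16, Pex19, and without replicates neighbours in it cannot be separated. Pex11a, which takes part in elongation and division of peroxisomes, had 888 on the DKO-labelled array and 611 on the ApoE-KO-labelled array (0.54).

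Substrates enter through the peroxisomal membrane, and the 5 genes grouped here as membrane proteins differed unevenly. The median difference was 0.27, which is the value of Abcd4, and the range ran from -0.12 to 1.84. Abcd3, which carries branched-chain and dicarboxylic acyl-CoA into the organelle, had 2802 on the DKO-labelled array and 781 on the ApoE-KO-labelled array, a difference of 1.84 (3.59-fold). Abcd2, a transporter of very-long-chain and polyunsaturated acyl-CoA, had 3817 on the DKO-labelled array and 4147 on the ApoE-KO-labelled array, a difference of -0.12. These related transporters thus stood 1 above 3-fold and 1 slightly below zero. Abcd4, named with this family but known as a lysosomal cobalamin transporter, had 351 on the DKO-labelled array and 292 on the ApoE-KO-labelled array (0.27). Pxmp2, a pore for small solutes, had 376 on the DKO-labelled array and 370 on the ApoE-KO-labelled array (0.02, and -0.022 with the adipocyte markers as zero). Pxmp4, a small membrane protein, had 961 on the DKO-labelled array and 703 on the ApoE-KO-labelled array (0.45).

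The 16 enzymes had a median difference of 0.77 (1.70-fold). Of the 16, 15 were higher (93.8%, against 46.4% of all named genes) and 1 was lower. At least 2-fold higher were 5 enzymes (31.2%, against 1.51% of all named genes). Their interquartile range was 0.80, against 0.22 for the peroxins, and they ran from -0.18 to 1.89. The enzyme median lay 0.21 above that of the peroxins. Of the 16 enzymes, 6 lay above the highest peroxin, 9 inside the range of the peroxins and 1 below the lowest peroxin. The lowest of these 6, Hsd17b4 (0.96), lay next to Pex7 (0.95), and without replicates such neighbours cannot be separated. The difference between the 2 groups has no test with 1 array per genotype. The plot of differences with their ranges over other settings gives all 33 genes.

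**Figure D2:**
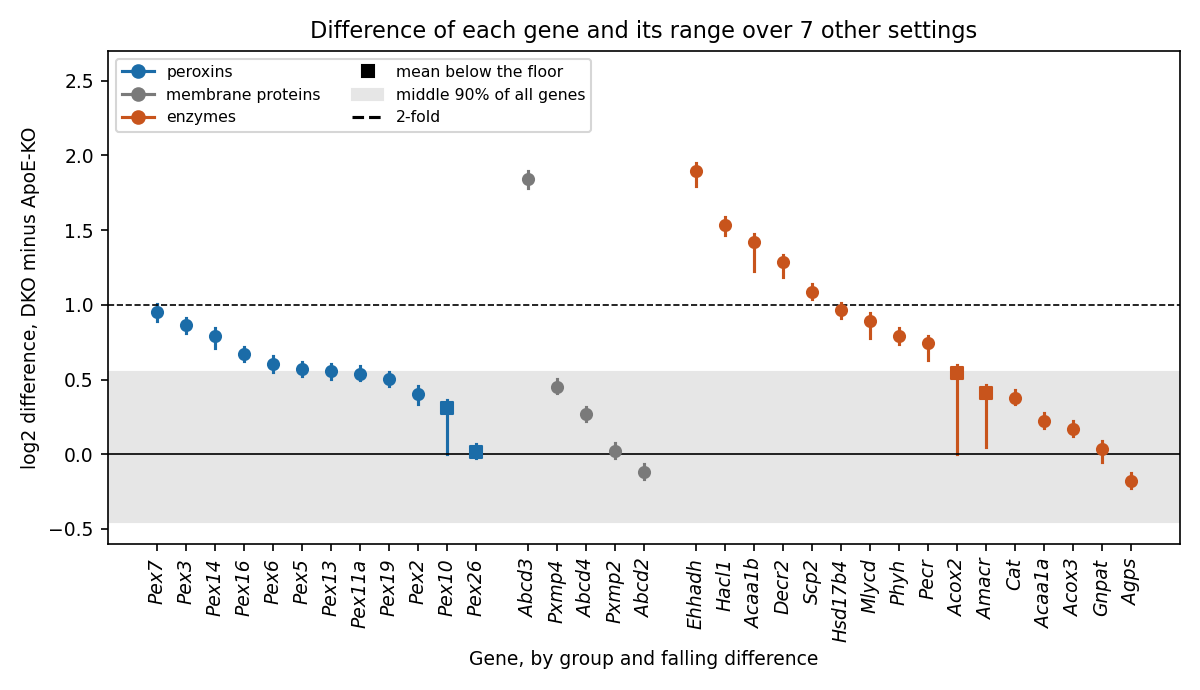
Log2 difference (DKO-labelled minus ApoE-KO-labelled array) of each gene, by group and then by size. A vertical line gives the range over 7 other settings, which scale the data, floor them or average probe sets. Averaging probe sets changes none of these values. Squares mark genes whose mean lay below the floor, and a grey band marks the middle 90% of all named genes (-0.45 to 0.55). The peroxins lie between 0.02 and 0.95, and the enzymes spread from -0.18 to 1.89.

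In beta-oxidation, an oxidase makes the first double bond, a bifunctional enzyme hydrates and dehydrogenates, and a thiolase cuts. The oxidase Acox3, which acts on branched chains, had 493 on the DKO-labelled array and 439 on the ApoE-KO-labelled array, a difference of 0.17. Acox2, the oxidase of branched chains and bile acid precursors, had 112 on the DKO-labelled array and 77 on the ApoE-KO-labelled array (0.55), both below the floor, so that with the floor in place of both values the difference was 0. Neither oxidase was at least 1.5-fold higher.

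The bifunctional enzymes were both higher. Ehhadh, the L-specific enzyme known for dicarboxylic acid oxidation, had 1854 on the DKO-labelled array and 499 on the ApoE-KO-labelled array, a difference of 1.89 (3.72-fold) and the largest of the 33. Hsd17b4, the D-specific enzyme that also serves very-long and branched chains, had 4035 on the DKO-labelled array and 2069 on the ApoE-KO-labelled array, a difference of 0.96 (1.95-fold). Hsd17b4 was just short of 2-fold and passed it with median centring (1.02) and with loess (1.01).

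The thiolases came apart from each other. Acaa1b had 526 on the DKO-labelled array and 196 on the ApoE-KO-labelled array, a difference of 1.42 (2.68-fold). Acaa1a, its paralogue, had 506 on the DKO-labelled array and 434 on the ApoE-KO-labelled array, a difference of 0.22. The value of Acaa1b in the array labelled ApoE-KO lay just below the floor. These thiolases are close in sequence and probe sets can read both, so the gap between them is uncertain. Scp2, which encodes both a thiolase for branched chains and a lipid transfer protein, had 2254 on the DKO-labelled array and 1061 on the ApoE-KO-labelled array, a difference of 1.09 (2.12-fold).

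Auxiliary enzymes prepare unusual chains. Decr2, a reductase of dienoyl-CoA for polyunsaturated chains, had 1002 on the DKO-labelled array and 411 on the ApoE-KO-labelled array, a difference of 1.28 (2.44-fold). Pecr, a reductase of enoyl-CoA, had 363 on the DKO-labelled array and 217 on the ApoE-KO-labelled array (0.74). Amacr, a racemase that turns branched acyl-CoA into the form the oxidases accept, had 204 on the DKO-labelled array and 153 on the ApoE-KO-labelled array (0.41, or 0.05 with the floor as the lowest value).

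Both alpha-oxidation enzymes were higher. Phyh, which hydroxylates phytanoyl-CoA, had 5917 on the DKO-labelled array and 3421 on the ApoE-KO-labelled array, a difference of 0.79 (1.73-fold). Hacl1, the lyase that then releases a carbon unit, had 1822 on the DKO-labelled array and 628 on the ApoE-KO-labelled array, a difference of 1.54 (2.90-fold). The later step had the wider difference.

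Genes of ether lipid synthesis stood near or below zero. Gnpat, the acyltransferase of its first step, had 2486 on the DKO-labelled array and 2425 on the ApoE-KO-labelled array, a difference of 0.04 whose sign turned with quantile normalization (-0.051) and with the adipocyte markers as zero (-0.0082). Agps, the next enzyme, had 430 on the DKO-labelled array and 487 on the ApoE-KO-labelled array, a difference of -0.18. Far1, a reductase that supplies fatty alcohol to Agps and is not one of the 33 genes, was named after its value was seen and had 480 on the DKO-labelled array and 652 on the ApoE-KO-labelled array (-0.44). The other 2 enzymes of the 33 have broader roles. Mlycd, which removes malonyl-CoA and works in peroxisomes, mitochondria and cytosol, had 469 on the DKO-labelled array and 252 on the ApoE-KO-labelled array, a difference of 0.89 (1.86-fold). Cat, the catalase that destroys the hydrogen peroxide made by the oxidases, had 5764 on the DKO-labelled array and 4431 on the ApoE-KO-labelled array, a difference of 0.38 (1.30-fold).

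The enzymes that Pex7 imports differed among themselves. Thiolase, Phyh and Agps carry the amino-terminal signal that Pex7 reads. Beside Pex7 at 0.95, Acaa1b stood at 1.42, Phyh at 0.79, Acaa1a at 0.22 and Agps at -0.18.

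A further list of peroxisomal genes had 36 measured members. At least 2-fold higher were 5 of them, against 1.51% of all named genes, and 4 when intensities below the floor were set to it. None of the 36 was at least 2-fold lower, against 0.527% of all named genes. Higher at all were 29, against 46.4%, and the median was 0.50. Slc27a2, which activates very-long-chain fatty acids, had 2695 on the DKO-labelled array and 161 on the ApoE-KO-labelled array, a difference of 4.06 (3.78 with the floor). The thioesterase gene Acot4 had 590 on the DKO-labelled array and 169 on the ApoE-KO-labelled array (1.81, or 1.58 with the floor). Ddo, an oxidase of D-aspartate, had 348 on the DKO-labelled array and 100.2 on the ApoE-KO-labelled array (1.80, or 0.82 with the floor). Slc25a17, the peroxisomal carrier of nucleotides and coenzyme A, had 1164 on the DKO-labelled array and 393 on the ApoE-KO-labelled array (1.57), and Nudt7, which hydrolyses coenzyme A, had 990 on the DKO-labelled array and 437 on the ApoE-KO-labelled array (1.18). These 5 genes act on fatty acyl-CoA or coenzyme A, except Ddo. The genes for fission shared with mitochondria, named after their values were seen, differed less: Mff by 0.55, Dnm1l by 0.19 and Fis1 by 0.16. Enzymes of amino acid, glyoxylate, urate and bile acid metabolism (Hao1, Agxt, Dao, Pipox, Uox and Baat, also named after their values were seen) stayed under the floor on both arrays.

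Mitochondrial fatty acid oxidation was set beside the peroxisomal genes. Its 17 measured genes had a median of 1.38, with 17 higher and 14 at least 2-fold higher, where 46.4% and 1.51% of all named genes were so. The median of the 16 peroxisomal enzymes was 0.77. The difference between these lists was not tested. Pairs of counterparts were chosen by function after values had been seen. Ehhadh (1.89) stood beside Hadha (1.57), Acaa1b (1.42) beside Acaa2 (2.13), Decr2 (1.28) beside Decr1 (1.48), and Eci2 (0.94) beside Eci1 (0.92). Other peroxisomal genes could have been set in the first 2 pairs. Hsd17b4 (0.96) had a lower difference than Hadha, so the order in the first pair depends on the enzyme chosen. The other thiolase genes, Scp2 (1.09) and Acaa1a (0.22), had lower differences than Acaa2, as Acaa1b did. The plot by gene group shows the spread of each list.

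**Figure D3:**
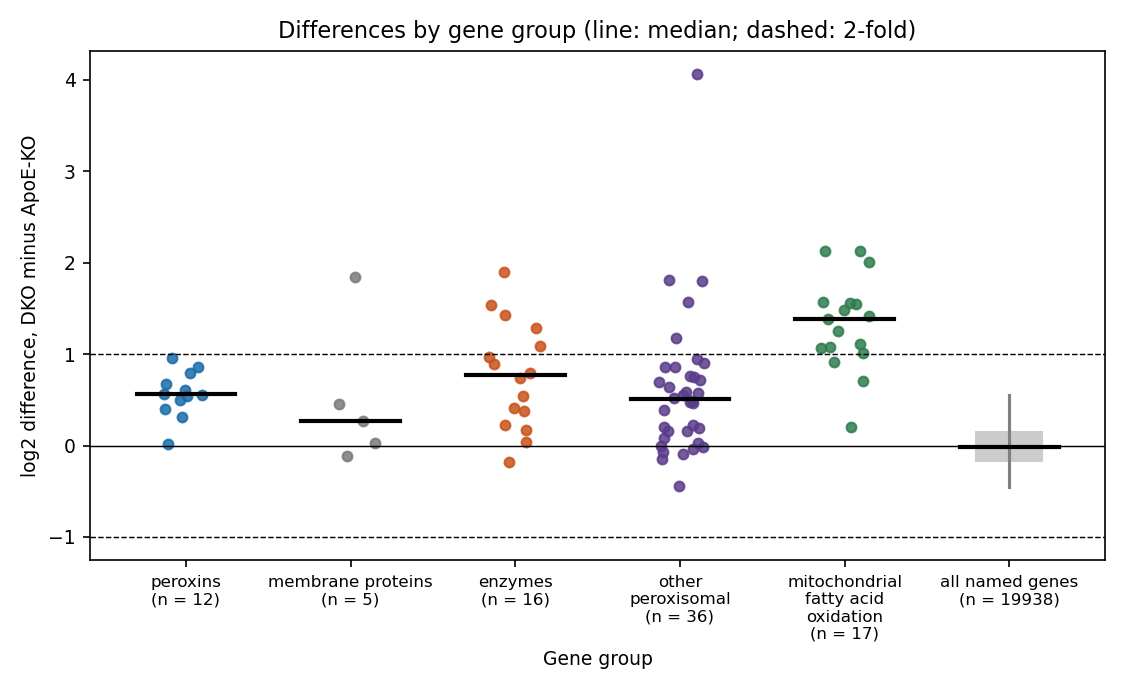
Log2 difference (DKO-labelled minus ApoE-KO-labelled array) of single genes in 5 lists, with the median of each as a black line, and on the right the middle 50% (box), middle 90% (line) and median of all named genes. The medians are 0.56 for peroxins, 0.27 for membrane proteins, 0.77 for enzymes, 0.50 for other peroxisomal genes, 1.38 for mitochondrial fatty acid oxidation and -0.01 for all named genes.

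Regulators known to act on peroxisomal genes were read as a list of 9. Of these, 6 were higher (66.7%, against 46.4% of all named genes). At least 2-fold higher were 3 (33.3%, against 1.51%). Ppara, the receptor named after peroxisome proliferation, had 1009 on the DKO-labelled array and 243 on the ApoE-KO-labelled array, a difference of 2.06. The coactivator genes Ppargc1a (1.44) and Ppargc1b (1.23) were the other members past 2-fold. The remaining members, named after their values were seen, ran from -0.22 (Rxra, the partner of PPAR) and -0.21 (Ppard) to 0.47 (Pparg) and 0.56 (Esrra). Prdm16 stood at 0.13 and Tfeb at -0.12.

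Levels and differences were set against each other over the whole array. The plot of difference against mean intensity shows that the 6 genes past 2-fold lay above the floor by their mean. The members below the floor by their mean were Pex10, Pex26, Acox2 and Amacr, and these 4 had differences of 0.02 to 0.55.

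**Figure D4:**
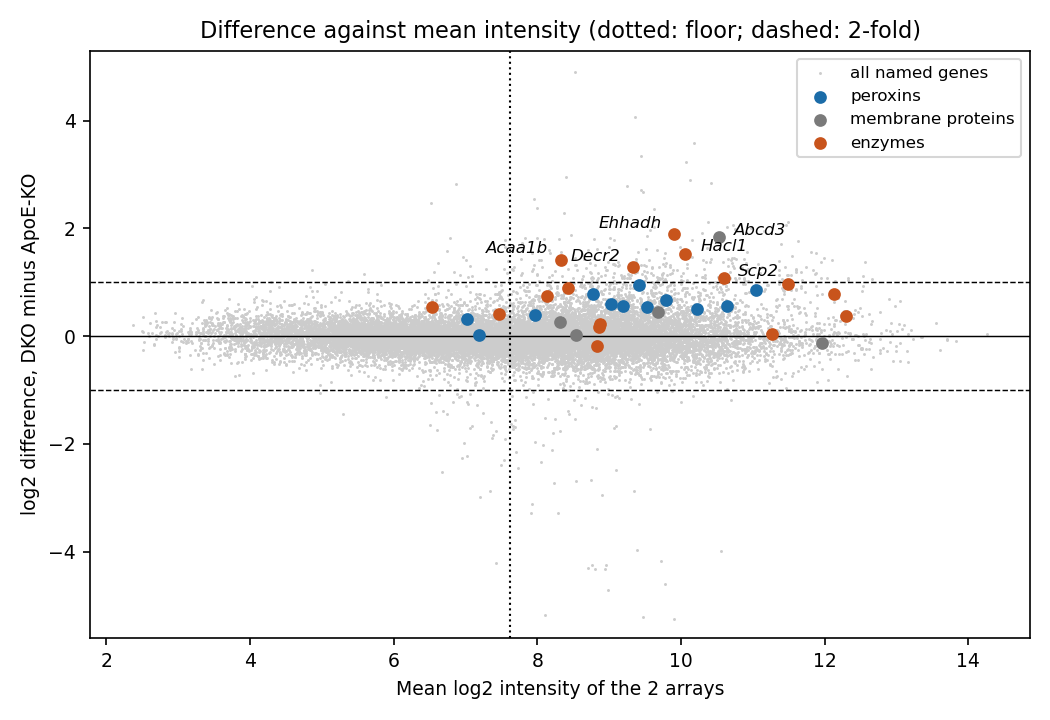
Log2 difference (DKO-labelled minus ApoE-KO-labelled array) against the mean log2 intensity of both arrays, grey points for the 19938 named genes and coloured points for the 33 peroxisomal genes, with 2-fold as dashed lines and the floor as a dotted line. The 6 labelled genes lie above the upper dashed line, and 0 of the 33 lie below the lower one.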

How the data were processed

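Affymetrix whole-transcript arrays were hybridised with RNA pooled from 3 mice per genotype. Per the labels' protocols, Trizol extraction preceded biotin labelling of fragmented DNA. The authors deposited 1 linear intensity per probe set and array, from 3.55 to 23635.65. Background correction, summarisation and scaling were not given in the sources used. The medians were 152.1 (DKO) and 157.7 (ApoE-KO). The number of arrays, 2, limits precision.

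Log2 was taken with no pseudocount in Python 3.11.15 with pandas 2.3.3. Of 35557 probe sets, 21789 had 1 gene symbol in GEO's platform annotation, 1621 had several and 12147 had none. For genes with several, the probe set with the highest mean was used. Counts ran over all 19938 genes, at 2-fold, with no filter. The calculation was tested on simulated data. The members and lists were chosen with earlier results of these data known. The genes open to naming were all members, the targeted genes, and list genes past 2-fold or otherwise the 4 largest, and exceptions are stated. The alternatives were quantile normalization, median centring, loess (span 0.4), an offset of 50, the floor as the lowest value, means of probe sets, thresholds of 1.5-fold and 3-fold, members on or above the floor, means of members, enzyme subsets and, added after seeing the data, centring on adipocyte markers.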

Additional observations from a re-analysis of the deposited data

How the results depend on the processing

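The number of genes past 2-fold upward (6) became 15 at 1.5-fold and 2 at 3-fold, which follows from the thresholds. It was 6 to 8 under the other settings, and the count at least 2-fold lower was 0 in every setting run. The peroxin median (0.56) stayed between 0.52 and 0.61, the enzyme median (0.77) between 0.70 and 0.85, and their gap (0.21) between 0.17 and 0.29. Of 231 values of single genes (33 genes, 7 alternatives), 221 kept direction and side of 2-fold, and 3 (Pex10, Pex26 and Acox2 with the floor as the lowest value) became 0, which has no direction. The mean of probe sets changed none by construction, since each gene has 1 probe set. Those that passed 2-fold were Pex7 under median centring, and Hsd17b4 under median centring and loess. The values whose sign turned were those of Gnpat, with quantile normalization (-0.051) and with the adipocyte markers as zero (-0.0082), and of Pex26 (-0.027) and Pxmp2 (-0.022) with the adipocyte markers as zero. Quantile normalization, median centring and loess moved the median of all genes to between 0.01 and 0.04. No paired analysis was possible because each genotype has 1 array. The lack of replicate arrays, the unknown probe positions and the differing muscle and beige markers limit every value given.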

Other observations

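Further members of the list of other peroxisomal genes, named here after their values were seen, were higher by less than 2-fold in the array labelled DKO. The isomerases Eci2 (0.94) and Ech1 (0.76), which serve unsaturated chains, the carnitine acyltransferases Crat (0.86) and Crot (0.49), which let shortened chains leave the organelle, and the reductase Dhrs4 (0.90) were among them. Tmem135, a membrane protein gene, stood at 0.86. The hydrolases Nudt12 (0.75) and Nudt19 (0.72), the epoxide hydrolase Ephx2 (0.69), the proteases Tysnd1 (0.64) and Lonp2 (0.47), the glutathione transferase Gstk1 (0.57) and the dehydrogenase Idh1 (0.52) followed. Acbd5, which tethers peroxisomes to the endoplasmic reticulum, stood at 0.20, the thioesterase gene Acot8 at 0.23 and Pex11g, a relative of Pex11a, at -0.01.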
